A study of Sus scrofa with 8 samples.

Results

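Lipolysis genes were followed in backfat, the subcutaneous fat of the back, of pigs of 2 breeds. The genes were a named list of 9: the lipases PNPLA2, LIPE and MGLL, their regulators ABHD5 and G0S2, the receptors ADRB1 and ADORA1, the phosphodiesterase PDE3B and the glycerol channel AQP7. Members were the probe sets of the Affymetrix GeneChip Porcine Genome Array that the platform's annotation gives exactly 1 gene symbol, where that symbol was on the list. These were 9 probe sets of 6 genes, among 23999 probe sets that were not controls and 6765 named genes. PNPLA2, MGLL and ADRB1 had 2 probe sets each, and LIPE, ABHD5 and ADORA1 had 1 each. Their Entrez gene identifiers are 100049704 (PNPLA2), 397583 (LIPE), 100233193 (MGLL), 497624 (ABHD5), 397355 (ADRB1) and 606743 (ADORA1). The other 3 listed genes, G0S2, PDE3B and AQP7, matched no probe set under this rule and were not analysed here.

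In fat cells, stored triacylglycerol is taken apart in steps. Adipose triglyceride lipase (PNPLA2), helped by its co-activator ABHD5, releases the first fatty acid, hormone-sensitive lipase (LIPE) splits the diacylglycerol that remains, and monoacylglycerol lipase (MGLL) frees the last fatty acid from glycerol. Catecholamines drive the process through beta-adrenergic receptors such as ADRB1, which raise cyclic AMP and activate protein kinase A. Adenosine acting on ADORA1 lowers cyclic AMP and holds lipolysis back.

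The study compared 4 backfat samples of KNP pigs aged 7 months with 4 of YS pigs aged 6 months, kept under the same conditions. YS is written out as Yorkshire in one label, and no label writes KNP out. No treatment, transgene or sex is given, and every KNP sample was 1 month older than every YS sample, so breed and age cannot be told apart. The labels do not say that each sample came from its own animal, so p-values measure only the spread between these samples. The value on each array is the authors' signal, a linear intensity per probe set, and differences were tested on the log2(signal + 16) scale, which understates the change of dim probe sets. In whole tissue, fewer cells of a type and less RNA per cell cannot be told apart.

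The arrays differed in the balance of 3' and 5' control signals and in markers of muscle. The first stands beside the values of the members below. Member differences without the array of high muscle markers are given at the end. The 3'/5' difference, the log2 signal of the 3' minus the 5' probe sets of 3 housekeeping controls, was 7.84, 5.72, 2.04 and 1.84 on KNP replicates 1 to 4 and 2.46, 2.97, 2.87 and 4.31 on YS replicates 1 to 4. It was therefore largest on KNP replicates 1 and 2 and YS replicate 4. The no-target level, the 95th percentile of 23 control probe sets without a target in pig RNA, ran from 40.6 to 161. The adipocyte markers ADIPOQ, LEP, FABP4, LPL and PPARG were above it on all 8 arrays. The adiponectin gene ADIPOQ had signals of 156, 431 and 564 on the 3 arrays of highest 3'/5' difference, and of 2302 to 5458 on the other 5. PPARG was also lowest on these 3 arrays, at 1854 to 2712, but the leptin gene LEP and FABP4 were at their highest on KNP replicate 1, at 5126 and 56120. Of the 5 adipocyte markers 2 had a higher and 3 a lower mean in KNP, with a median difference of -0.27 (KNP minus YS). The brighter probe set of the lipoprotein lipase gene LPL was lower on each KNP array than on any YS array. It ran from 10669 to 18669 in KNP and from 19027 to 22461 in YS. Of all probe sets tested, 0.856% had KNP wholly below YS. The LPL difference was -0.50 ± 0.25 (SE), with an unadjusted p of 0.0760 and an adjusted p of 0.9998 in limma. With the dimmer LPL probe set the breeds overlapped, at 1944 to 5196 in KNP and 2027 to 6020 in YS, with a difference of -0.34 ± 0.42 (SE). Of 6 skeletal muscle markers, all 6 had a higher mean in KNP, and their median lay 6.57 log2 units above the gene means on KNP replicate 2 and between -1.90 and 0.03 on each of the other 7 arrays. Markers of other cells were measured for 4 endothelial, 3 macrophage, 3 T and NK cell, 3 fibroblast and 2 red blood cell genes. Their median differences, KNP minus YS, were 0.07, -0.67, -0.42, -0.74 and -0.56, and none of these genes passed the test. Of the endothelial genes 2 had a higher mean in KNP, PECAM1 at 0.24 and VWF at 0.37, and 2 a lower one. Another tested probe set of PECAM1 and of VWF had the opposite sign, at -0.13 and -0.15. The macrophage median was that of CD163, with MRC1 at -0.68 and CD14 at 0.51, and the other CD163 probe set had the opposite sign, at 0.64. The T and NK cell median was that of CD2, which was above the no-target level on 3 of 8 arrays.

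The comparison asked whether the lipolysis genes differ between the breeds. None of the 9 probe sets did so beyond the spread between samples: in limma 0 of 9 passed an adjusted p of 0.05, against 0 of 17999 probe sets tested (0%). At an unadjusted p under 0.05 in limma there were 0 of 9, against 2.84% of all probe sets tested. In 0 of 9 the 4 KNP values lay wholly to one side of the 4 YS values, against 1.96% of all (1.1% with KNP above and 0.856% with KNP below). The mean was higher in KNP for 7 probe sets and lower for 2, with a median difference of 0.21, beside -0.001 over all probe sets tested. Counted once per gene, by the brighter probe set, it was higher for 4 genes and lower for 2, with a median difference of 0.12. Each of the 9 had the same adjusted p, 0.9998. The 9 passed the filter on low values, and 6 of them were above the no-target level on all 8 arrays.

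**Figure D1:**
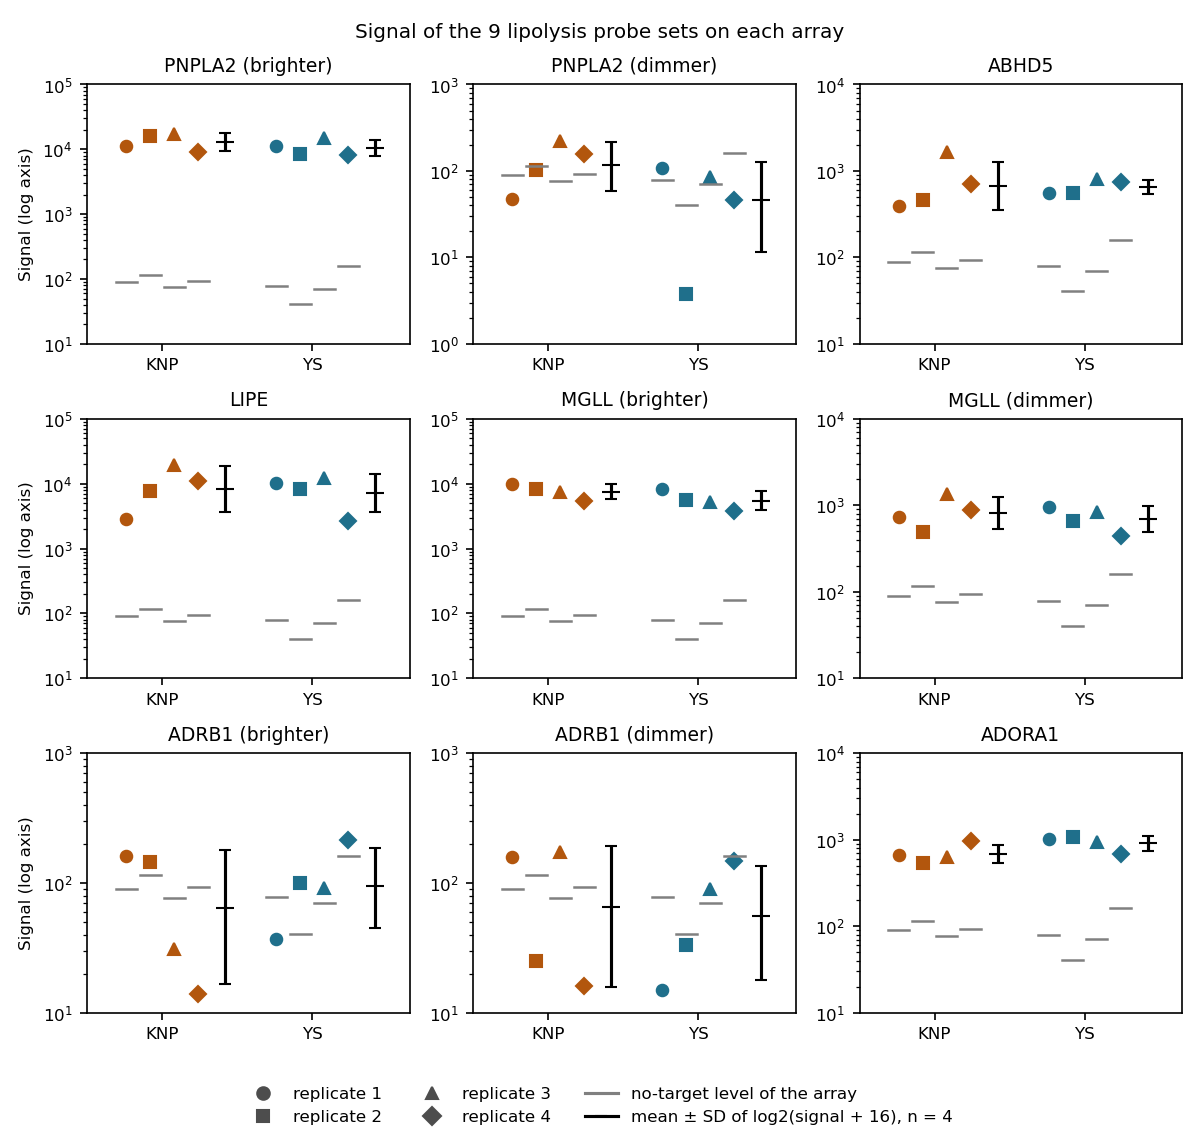
Signal of each of the 9 lipolysis probe sets on a log axis, by breed, with 1 point per array, its shape giving the replicate, and the mean ± SD (n = 4) of log2(signal + 16) beside each breed. Brighter and dimmer name the probe sets of a gene by their mean, and grey lines mark the no-target level of each array. The breeds overlap for all 9, and LIPE is lowest on YS replicate 4 and KNP replicate 1.

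PNPLA2, the lipase that starts triacylglycerol breakdown, was above the no-target level on all 8 arrays with its brighter probe set, and the breeds overlapped. This probe set had signals of 11113, 15837, 17434 and 8979 on KNP replicates 1 to 4 and of 11173, 8503, 15194 and 8120 on YS replicates 1 to 4. Both the highest array, KNP replicate 3, and the next, KNP replicate 2, were KNP, but KNP replicate 4 lay below 2 of the 4 YS arrays. On the log2 scale KNP arrays averaged 13.66 ± 0.45 and YS arrays 13.35 ± 0.42 (SD, n = 4). The difference was 0.31 ± 0.32 (SE), a KNP mean 1.24-fold that of YS, with a 95% interval from 0.75-fold to 2.04-fold. The largest signal was 2.15-fold the smallest. With 1 array left out the difference ran from 0.16 without KNP replicate 3 to 0.49 without YS replicate 3. It was 0.15 without the 3 arrays of highest 3'/5' difference and 0.33 with the 3'/5' difference added to the model.

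The dimmer PNPLA2 probe set lay near background. Its signals were 47.5, 101.2, 224 and 155 in KNP and 107.4, 3.81, 85.9 and 45.5 in YS, above the no-target level on 2 arrays of each breed. The difference was 1.08 ± 0.62 (SE), with a 95% interval from -0.32 to 2.48, and without YS replicate 2, the lowest array, it was 0.53. It moved with the pseudocount, from 1.59 at a pseudocount of 1 to 0.65 at 64, and was 1.69 without the 3 arrays of highest 3'/5' difference (unadjusted p = 0.0844 in limma). With the 3'/5' difference added to the model the dimmer PNPLA2 difference was 1.41, at an unadjusted p of 0.0400 and an adjusted p of 0.9998 in limma, where 4.76% of all probe sets had an unadjusted p under 0.05. With arrays weighted by their quality it was 1.61, at an unadjusted p of 0.0466 against 5.42% of all in limma. Across the 8 arrays the PNPLA2 probe sets had a Pearson's r of 0.60 and a Spearman's rho of 0.67 (exact permutation p = 0.111 and 0.0831, two-sided; 0.332 and 0.249 adjusted over 3 genes with a pair of probe sets). Without the 2 arrays farthest from the median of the brighter one, KNP replicates 2 and 3, r was 0.38.

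ABHD5, also called CGI-58, binds PNPLA2 and raises its activity once it is freed from the perilipin coat of the lipid droplet. Its signals were 396, 456, 1639 and 702 on KNP replicates 1 to 4 and 556, 557, 799 and 751 on YS replicates 1 to 4. KNP thus held the lowest arrays, replicates 1 and 2, as well as the highest, replicate 3, while the YS arrays stayed close together. KNP arrays averaged 9.44 ± 0.90 and YS arrays 9.39 ± 0.27 (SD, n = 4), a difference of 0.04 ± 0.43 (SE) with a 95% interval from -0.93 to 1.02. Its sign was not fixed: the difference was -0.37 without KNP replicate 3 and 0.29 without KNP replicate 1. It was 0.31 with the 3'/5' difference added to the model (unadjusted p = 0.424 in limma) and 0.76 without the 3 arrays of highest 3'/5' difference (unadjusted p = 0.123, adjusted p = 0.672 in limma).

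LIPE, the lipase that protein kinase A activates by phosphorylation, spread more widely over the arrays than the breeds differed. Its signals were 2855, 7848, 19665 and 11037 on KNP replicates 1 to 4 and 10174, 8293, 12148 and 2678 on YS replicates 1 to 4. The highest array was 7.34-fold the lowest, and each breed held 1 array near the bottom. KNP arrays averaged 13.03 ± 1.17 and YS arrays 12.83 ± 0.98 (SD, n = 4). The difference was 0.21 ± 0.65 (SE), a KNP mean 1.15-fold that of YS, with a 95% interval from 0.42-fold to 3.18-fold. It was -0.27 without YS replicate 4, -0.21 without KNP replicate 3 and 0.72 without KNP replicate 1.

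The 3 arrays with the lowest LIPE signal, YS replicate 4 and KNP replicates 1 and 2, were the 3 of highest 3'/5' difference. On these LIPE ran from 2678 to 7848, and on the other 5 arrays from 8293 to 19665. Across the 8 arrays LIPE and the 3'/5' difference had a Pearson's r of -0.76 and a Spearman's rho of -0.81 (exact permutation p = 0.0338 and 0.0218, two-sided), and neither passed after adjustment over 9 member probe sets (0.152 and 0.0980). After the breed means were taken away r was -0.84, and without the 2 arrays farthest from the median 3'/5' difference, KNP replicates 1 and 2, it was -0.90. Over all 8 arrays, a Pearson's r at least as far from 0 as -0.76 was found for 10.8% of the 17999 probe sets tested. Of the 5 adipocyte markers ADIPOQ and PPARG were lowest on the same 3 arrays as LIPE, whereas LEP and FABP4 were highest on KNP replicate 1. LPL was lowest on these 3 arrays with its dimmer probe set, at 1944 to 2637, but not with its brighter one. With the 3'/5' difference added to the model the LIPE difference between breeds was 0.71, at an unadjusted p of 0.134 in limma, and without the 3 arrays, which leaves 2 KNP and 3 YS arrays, it was 0.55.

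**Figure D2:**
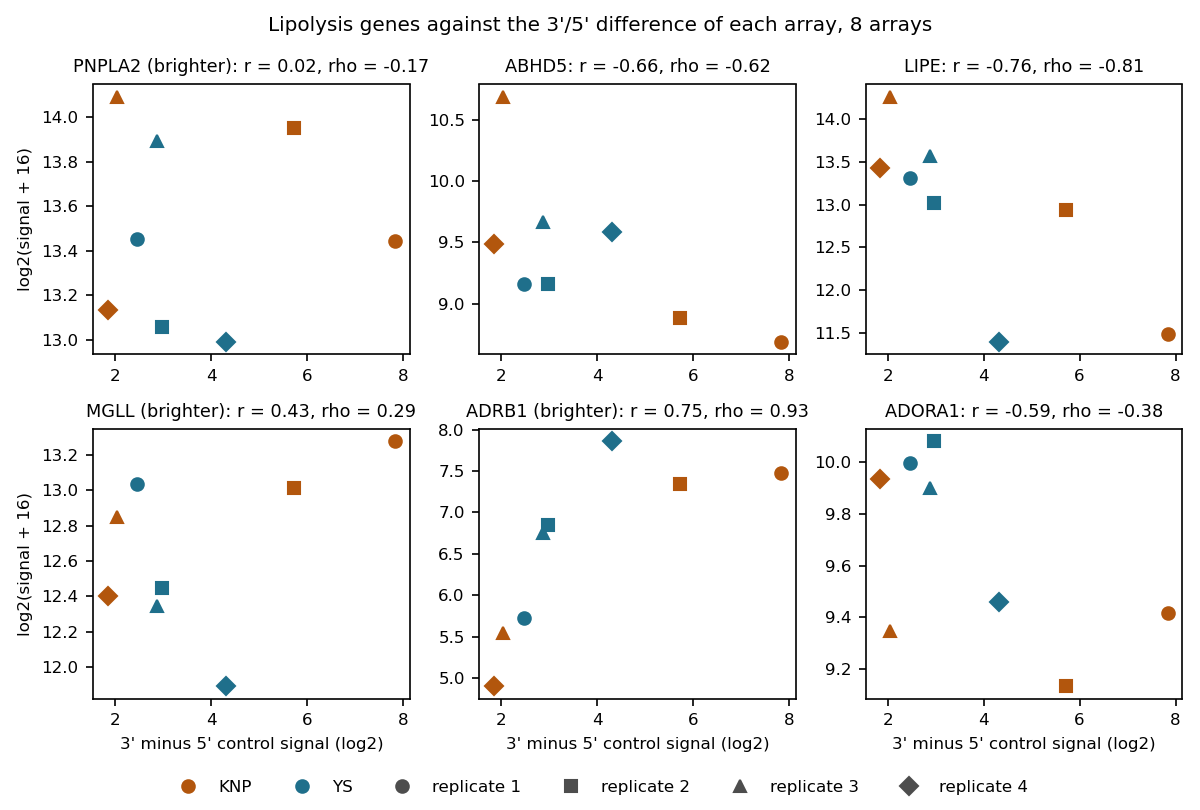
Log2(signal + 16) of the 6 lipolysis genes (for genes with a pair of probe sets, the brighter one) against the 3'/5' difference of each of the 8 arrays, in log2 units, coloured by breed with the shape giving the replicate. Pearson's r is -0.76 for LIPE, 0.75 for the brighter ADRB1 probe set and 0.02 for PNPLA2, and none of these r passes after adjustment. The rho of that ADRB1 probe set, 0.93, does pass (adjusted p = 0.0201, exact permutation), with signal above the no-target level on 5 of 8 arrays.

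MGLL, which completes the release of glycerol and also breaks down the endocannabinoid 2-arachidonoylglycerol, had a higher mean in KNP with both probe sets, and neither passed the test. The brighter one had signals of 9904, 8233, 7369 and 5390 on KNP replicates 1 to 4 and of 8375, 5576, 5185 and 3781 on YS replicates 1 to 4. The highest array was KNP and the lowest YS, but YS replicate 1 exceeded 3 of the 4 KNP arrays. KNP arrays averaged 12.88 ± 0.37 and YS arrays 12.43 ± 0.47 (SD, n = 4), a difference of 0.45 ± 0.32 (SE), or 1.37-fold with a 95% interval from 0.84-fold to 2.25-fold. It lay between 0.27 and 0.66 with 1 array left out, the lowest being without YS replicate 4. Without the 3 arrays of highest 3'/5' difference it was 0.02, but with the 3'/5' difference added to the model it was 0.38 (unadjusted p = 0.284 in limma).

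The dimmer MGLL probe set put the arrays in another order. Its signals were 743, 491, 1346 and 887 in KNP and 961, 657, 832 and 445 in YS, highest on KNP replicate 3 rather than KNP replicate 1. The difference was 0.22 ± 0.37 (SE), with a 95% interval from -0.61 to 1.05, and it was -0.02 without KNP replicate 3. It was 0.41 with the 3'/5' difference added to the model and 0.43 without the 3 arrays of highest 3'/5' difference. The MGLL probe sets had a Pearson's r of 0.35 and a Spearman's rho of 0.29 across the 8 arrays (exact permutation p = 0.404 and 0.501, two-sided; the same adjusted over 3 genes), and r was -0.0064 without KNP replicate 1 and YS replicate 4. Toward the 3'/5' difference they also ran in opposite directions, with r of 0.43 for the brighter and -0.53 for the dimmer (exact permutation p = 0.297 and 0.178, adjusted p = 0.446 and 0.320). Their rho was 0.29 and -0.76 (exact permutation p = 0.501 and 0.0368, adjusted p = 0.563 and 0.110). Without KNP replicates 1 and 2, the arrays farthest from the median, both were negative, at -0.72 and -0.89.

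ADRB1, a beta-adrenergic receptor that starts the lipolytic signal, was near background with both probe sets. The brighter had signals of 162, 146, 30.8 and 13.9 on KNP replicates 1 to 4 and of 37.0, 99.5, 92.2 and 216 on YS replicates 1 to 4. It exceeded the no-target level on 5 of 8 arrays, 2 of them KNP, and its highest values were on the 3 arrays of highest 3'/5' difference. KNP arrays averaged 6.32 ± 1.29 and YS arrays 6.80 ± 0.87 (SD, n = 4), a difference of -0.48 ± 0.66 (SE) with a 95% interval from -1.97 to 1.01. Without KNP replicate 4, the lowest array, the difference was -0.0087. With the 3'/5' difference added to the model it was -1.04, at an unadjusted p of 0.0226 and an adjusted p of 0.9998 in limma. Without the 3 arrays it was -1.22, at an unadjusted p of 0.0321 and an adjusted p of 0.564 in limma, where 8.42% of all probe sets had an unadjusted p under 0.05. The KNP values left in that fit, 30.8 and 13.9, were not above the no-target level, so its size is not measured. The fit with the 3'/5' difference added also includes these values.

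The brighter ADRB1 probe set was not above the no-target level on KNP replicates 3 and 4 and YS replicate 1, the 3 arrays of lowest 3'/5' difference, so the order among these values is not measured. With them included, Spearman's rho was 0.93 (exact permutation p = 0.00223, two-sided; 0.0201 adjusted over 9 probe sets) and Pearson's r was 0.75 (0.0242; 0.152 adjusted). Over all 8 arrays, a Pearson's r at least as far from 0 as 0.75 was found for 11.1% of the 17999 probe sets tested. The share by rho was not computed, so how unusual this rho is among all probe sets is not known. Without KNP replicates 1 and 2 r was 0.96. The no-target level was also highest on YS replicate 4, at 161, and on KNP replicate 2, at 115.4, and its part in the relation was not tested. For the other 7 member probe sets r toward the 3'/5' difference ran from -0.66 (ABHD5) to 0.43 (the brighter MGLL) and rho from -0.76 to 0.29, and 0 of them passed after adjustment (exact permutation).

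The dimmer ADRB1 probe set had signals of 160, 24.9, 173.6 and 15.9 in KNP and of 15.1, 33.3, 89.3 and 149 in YS. It was above that level on 3 of 8 arrays, 1 of them YS. The difference of 0.18 ± 0.73 (SE) had the opposite sign to that of the brighter probe set and a 95% interval from -1.47 to 1.83. Its own sign changed with the 3'/5' covariate, to -0.05, and without KNP replicate 3, to -0.23. The brighter probe set was negative under all 18 alternatives, from -1.22 to -0.0087, and since the probe sets differed in sign no direction is given for ADRB1.

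ADORA1, the adenosine receptor that opposes the adrenergic signal, had a lower mean in KNP and did not pass the test. Its signals were 668, 545, 635 and 962 on KNP replicates 1 to 4 and 1007, 1067, 940 and 687 on YS replicates 1 to 4. The 3 lowest arrays were KNP, the 2 highest were YS, and the breeds overlapped through KNP replicate 4, which lay above YS replicates 3 and 4. KNP arrays averaged 9.46 ± 0.34 and YS arrays 9.86 ± 0.28 (SD, n = 4). The difference was -0.40 ± 0.27 (SE), a YS mean 1.32-fold that of KNP, and the 95% interval for KNP over YS was 0.50-fold to 1.16-fold. The unadjusted p was 0.171 in limma. The lowest array, KNP replicate 2, was the one with the muscle signal, and without it the difference was -0.29. With any 1 array left out it stayed between -0.56 and -0.29. It was -0.31 with the 3'/5' difference added to the model and -0.35 without the 3 arrays of highest 3'/5' difference.

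**Figure D3:**
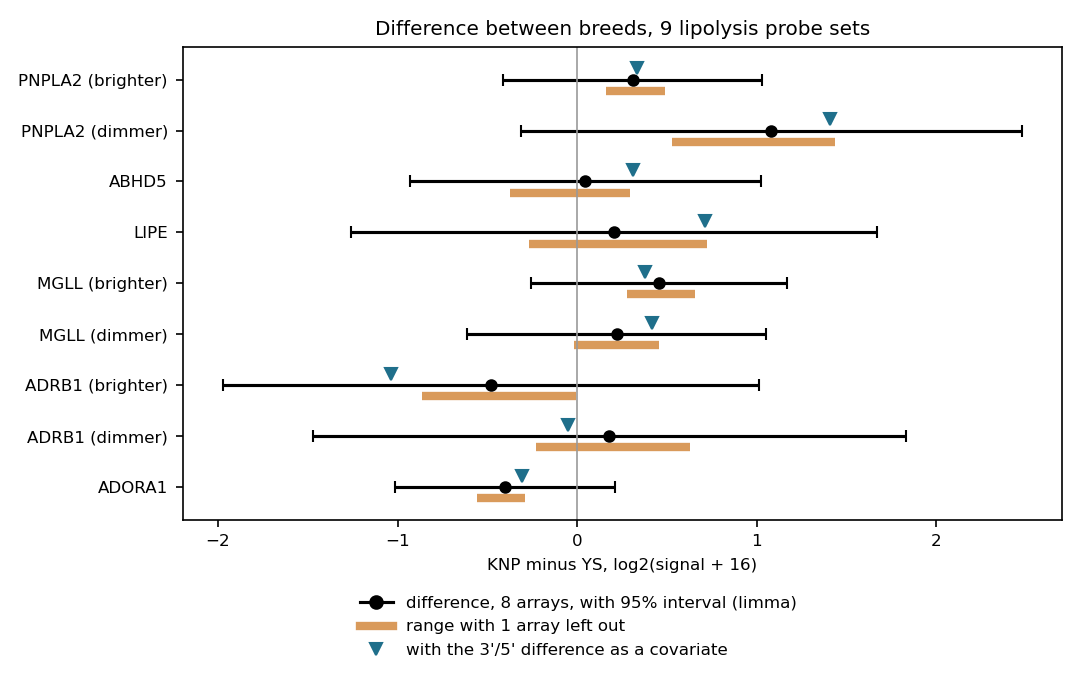
Difference between breeds (KNP minus YS, log2(signal + 16)) for each of the 9 probe sets, with its 95% interval from limma, the range when 1 array is left out, and the value with the 3'/5' difference added to the model. All 9 intervals include 0, and the LIPE range runs from -0.27 to 0.72.

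Pairs of members were also compared across the arrays. Of the 15 pairs of the 6 genes, each by its brighter probe set, 6 had a positive and 9 a negative Pearson's r over the 8 arrays, and 0 passed after Benjamini-Hochberg adjustment by r or by rho (exact permutation; 1 had an unadjusted p under 0.05 by either). LIPE had positive coefficients with ABHD5 (r = 0.59, rho = 0.62, exact permutation p = 0.127 and 0.115, adjusted 0.558 and 0.453) and with PNPLA2 (r = 0.55, rho = 0.60, p = 0.164 and 0.132, adjusted 0.558 and 0.453). Without the 2 arrays farthest from the median of ABHD5, KNP replicates 1 and 3, the r of LIPE with ABHD5 was -0.15, so that it rested on those arrays. Without KNP replicates 2 and 3 that of LIPE with PNPLA2 was 0.38. The pair farthest from 0 was LIPE with ADRB1 (r = -0.77, rho = -0.88, exact permutation p = 0.0278 and 0.00724, adjusted 0.416 and 0.109), the genes that ran in opposite directions along the 3'/5' difference. Its r was -0.56 without KNP replicate 1 and YS replicate 4, and the coefficients include 3 arrays on which ADRB1 was not above the no-target level.

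The genes whose pattern over the 8 arrays was most like that of a member were ranked by Pearson's r among 6005 other named genes, as a description. For PNPLA2 they were the ribosomal protein gene RPS12 (r = 0.95), the aminopeptidase gene NPEPPS (0.93) and the ribosomal protein gene RPS24 (0.91), each lowest on YS replicate 4, as PNPLA2 was. For LIPE they were the deubiquitinase gene OTUB1, the T cell receptor zeta chain gene CD247 and AUP1, which encodes a lipid droplet and endoplasmic reticulum protein, each with an r of 0.98. These 3 were highest on KNP replicate 3 and lowest on KNP replicate 1 or YS replicate 4, the arrays at the ends of the LIPE range. By the same measure LIPE ranked at place 633 for PNPLA2, ABHD5 at 1425 and MGLL at 909.

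Other genes of the pathway were taken from 3 lists. Of 28 receptors that promote or restrain lipolysis, 7 were tested, 0 passed in either direction in limma at an adjusted p of 0.05, and 0 had an unadjusted p under 0.05. Their mean was higher in KNP for 2 and lower for 5. The median difference was -0.14, and the gene at this median was above the no-target level on only 4 of 8 arrays. Over all 6006 named genes tested the median was 0.01, and 2.35% had an unadjusted p under 0.05 in limma. The beta-3 adrenergic receptor ADRB3 averaged 7.47 ± 0.60 over KNP and 7.86 ± 0.38 over YS arrays (SD, n = 4). This probe set exceeded the no-target level on 7 of 8 arrays. The other ADRB3 probe set, at 4.31 to 23.9, exceeded it on 0 of 8 and was left out by the filter on low values. The growth hormone receptor GHR averaged 9.88 ± 1.09 over KNP and 10.35 ± 0.32 over YS arrays. ADRB3 and GHR both had a lower mean in KNP, and the breeds overlapped. GHR was at 318 and 842 on KNP replicates 1 and 2, which were among the arrays of highest 3'/5' difference. On KNP replicates 3 and 4 it was at 1752 and 1539, above every YS array, at 926 to 1506.

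Of 36 genes of the cyclic AMP pathway, from G proteins to protein kinase A and phosphodiesterases, 12 were tested and 0 passed in either direction in limma, with 0 at an unadjusted p under 0.05. The mean was higher in KNP for 3 and lower for 9, with a median difference of -0.08. PRKACB, a catalytic subunit of protein kinase A, averaged 9.10 ± 0.56 over KNP and 9.50 ± 0.16 over YS arrays (SD, n = 4), and the breeds overlapped. It was at 341 and 418 on KNP replicates 1 and 2, which were among the arrays of highest 3'/5' difference. KNP replicates 3 and 4, at 738 and 755, lay inside the YS range of 634 to 785. PDE3A, a phosphodiesterase of the same family as PDE3B, averaged 7.13 ± 0.89 over KNP and 7.63 ± 0.75 over YS arrays, and its other probe set had the opposite sign, at 6.79 in KNP and 6.17 in YS. No direction can be given for PDE3A.

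Of 28 genes of the lipid droplet and of fatty acid and glycerol handling, 13 were tested and 0 passed in either direction in limma, with 0 at an unadjusted p under 0.05. The mean was higher in KNP for 8 and lower for 5, with a median difference of 0.18. The carboxylesterase CES1, which acts on triacylglycerol in rodents, averaged 13.50 ± 0.11 over KNP and 12.89 ± 0.60 over YS arrays (SD, n = 4). Its difference of 0.60 ± 0.32 (SE) had the smallest p of the 3 lists, 0.0911 unadjusted in limma. The droplet coat protein PLIN2 was at 9.70 ± 0.26 against 9.40 ± 0.30.

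**Figure D4:**
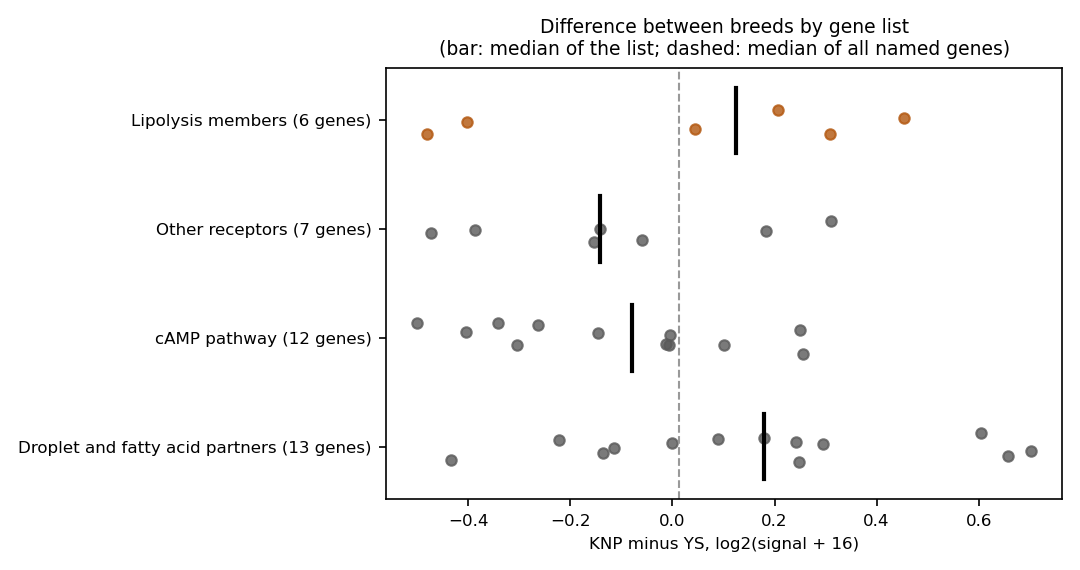
Difference between breeds (KNP minus YS, log2(signal + 16)) of the 6 lipolysis genes and of 3 lists of related genes, 1 point per gene by its probe set of highest mean. Bars mark list medians (0.12, -0.14, -0.08 and 0.18 from top to bottom) and the dashed line the median of all named genes, 0.01, and none of these genes passed the test.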

How the data were processed

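The deposited table holds the authors' intensity for 24123 probe sets on 8 arrays, 1 column per sample. The values are linear, and their mean trimmed by 2% at each end is close to 500 on every array, as read from the values. RNA was biotin-labelled and hybridised by the Affymetrix protocol, per the labels' protocols; the summarisation algorithm and detection calls are not given in the sources used here. The number of arrays limits the precision.

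Values were taken as log2(signal + 16). After 124 control probe sets, the 25% of probe sets with the lowest mean log2 value over the 8 arrays were left out, leaving 17999. Breeds were compared over this whole table in limma (version 3.58.1, R 4.3.3), by lmFit and eBayes with breed as the only term, two-sided. P-values were adjusted by Benjamini-Hochberg, with a threshold of 0.05. The script was tested on simulated data. Gene symbols came from the platform annotation; the 9 members matched the same symbol in RefSeq (Sscrofa11.1) by gene identifier. Probe sets carry no positions in the sources used here. Correlations used exact permutation over all pairings of the 8 arrays. List genes were represented by their probe set of highest mean, and the text names from each of the pathway lists its 2 genes of smallest p, since none passed, and the 3 genes most like PNPLA2 and LIPE. Members and lists were chosen with earlier results of these data known. Alternatives covered the filter, normalization, pseudocount, variance model, weights per array, a block for replicate number, a 3'/5' term, single arrays left out, a looser threshold and averaging the probe sets of a gene.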

Additional observations from a re-analysis of the deposited data

Results flagged for a closer look

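Among the member probe sets and the genes named from the lists, 58 groups of 4 arrays were checked for an array far from the other 3 (the gap as a share of the group's range), of which chance flags about 1 in 20. No group of a lipolysis member was marked. The growth hormone receptor GHR on YS replicate 4 had a log2 value of 9.879, beside 10.47 to 10.57 on the other YS arrays. YS replicate 4 was among the 3 arrays of highest 3'/5' difference. The erythroid gene ALAS2 on KNP replicate 2 had 6.019, beside 7.70 to 8.01 on the other KNP arrays. Its signal there, 48.9, was below the no-target level of that array, 115.4.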

How the results depend on the processing

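The count of 0 probe sets past the threshold, over all probe sets and over the members, was also 0 under each of the 19 other settings of the fit, and it was 0 at an adjusted p of 0.10 in the fit as reported. Over the 19 settings the smallest adjusted p of any probe set was 0.0596, with trend and robust variance, which would pass 0.10, and of any member 0.564. Of 171 recomputed member differences, 159 kept their sign and 12 did not, 10 of them with 1 array left out. ABHD5 became -0.012 with quantile normalization, and the dimmer ADRB1 probe set -0.0501 with a 3'/5' term. With 1 array left out, ABHD5 ran from -0.37 to 0.29, LIPE from -0.27 to 0.72, the dimmer MGLL probe set from -0.020 to 0.46 and the dimmer ADRB1 probe set from -0.23 to 0.63. The cause of these changes was not tested. Leaving out the 3 arrays of highest 3'/5' difference was an alternative chosen after seeing the data. Without KNP replicate 2, the array with the muscle signal, each member difference kept its sign. It was 0.21 and 1.14 for PNPLA2 (brighter and dimmer probe set), 0.23 for ABHD5 and 0.24 for LIPE. For MGLL it was 0.41 and 0.46, for ADRB1 -0.82 and 0.51, and for ADORA1 -0.29. A filter of 50% left 3 dim member probe sets untested. Averaging the probe sets of a gene gave 0.69 for PNPLA2, 0.34 for MGLL and -0.15 for ADRB1. The replicate numbers are not stated to pair samples: deviations of same-numbered arrays correlated between -0.19 and 0.13, over 0.1 for 1 of 4 numbers, and the replicate block gave 0 calls and left every difference at its value. Depth is not defined for arrays; signal over background limited ADRB1 and the dimmer PNPLA2 probe set.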
